A study of Mus musculus with 12 samples.

Results

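The ELR chemokines Cxcl1, Cxcl2, Cxcl3, Cxcl5 and Ppbp, the CXC receptors Cxcr1, Cxcr2 and Cxcr4, the atypical receptor Ackr3 and the ligand Cxcl12 were measured by RNA sequencing in mouse melanocytic lines with and without SX-682. These 10 genes were taken by symbol from the 34513 genes of the deposited count table, where each symbol matched 1 row. The lines were Melan-A, labelled non-tumorigenic, B16F0, which is tumorigenic, and B16F10, which is metastatic. Cultures of each line had received either no treatment or SX-682, a small-molecule antagonist of CXCR1 and CXCR2, and 2 libraries came from each of these 6 combinations. The labels give no edited allele and no dose or duration of SX-682. Nothing states that the replicates were separate cultures, so p-values measure only the spread between these libraries, which may be technical. Each class of cell is represented by 1 line, so a difference between lines cannot be told apart from a difference between classes.

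ELR chemokines carry a Glu-Leu-Arg motif before the first cysteine pair and are best known for drawing neutrophils through CXCR2 and, for some of them, CXCR1. Both receptors couple to inhibitory G proteins and are internalised after phosphorylation and arrestin binding. CXCL12 signals through CXCR4, while ACKR3 binds CXCL12 and removes it without G-protein signalling. Melanoma cells are known to secrete CXCL1, which was first described as a melanoma growth-stimulating activity, and its gene is a classical NF-kappaB target.

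Library totals ran from 48876982 to 85322092 counts, and a floor of 3 counts per library corresponded to 0.0330 to 0.0623 CPM, the count scaled to library size. Floors and count intervals cover counting error only. With 2 libraries per group an exact 2-sided permutation test within a line cannot fall under 0.333, so the tests rest on a spread that edgeR shares across genes and groups. The identity of the lines was checked on 10 melanocyte markers. Their summed level was 1351 to 1382 CPM in untreated Melan-A, 19352 to 19450 in untreated B16F0 and 25220 to 25248 in untreated B16F10. All 10 were above the floor in both untreated B16 groups, and 9 in both untreated Melan-A libraries. Melan-A kept a high Sox10 count (56544 and 62259). Dct had 30951 and 31866 counts, Mlana 9808 and 10842, Tyrp1 9099 and 9842, and Mitf 8913 and 9167. Pmel had 650 and 790 and Slc45a2 615 and 677. Tyr, the rate-limiting enzyme of melanin synthesis, had 77 and 69, Oca2 had 12 and 20, and Gpr143, a melanosome receptor, had 1 and 1. Except for Sox10, each was lower in CPM than in every untreated B16 library. The markers thus went both ways and left the melanocyte identity of the Melan-A libraries in doubt. It is taken from the labels, and every comparison with Melan-A carries this limit. Fibroblast markers summed to 114 to 116 CPM in untreated Melan-A against at most 16.7 in the untreated B16 libraries, and keratinocyte markers summed to 5.50 to 6.02 CPM against at most 0.480. The fibroblast sum was carried by Col1a1 (45.7 and 47.1 CPM) and Col3a1 (54.8 and 53.0 CPM). Lum (7.17 and 7.02 CPM) and Dcn (2.77 and 2.23 CPM) were also higher in untreated Melan-A. The untreated B16 libraries had at most 0.0267 CPM of Lum and 0 of Dcn. By contrast, Pdgfra was higher in untreated B16F0 (8.38 and 7.84 against 4.38 and 3.62 CPM in Melan-A). Col1a2 was higher in both untreated B16 lines (2.35 to 5.79 against 0.614 to 0.914 CPM). With SX-682 the fibroblast sum in Melan-A was 93.6 to 94.9 CPM. Its members moved unequally. Lum (1.14 and 1.52 CPM), Dcn (0.856 and 1.09), Col3a1 (41.5 and 40.5) and Col1a2 (0.337 and 0.200) were each under both controls. Col1a1 (46.2 and 45.8 CPM), Pdgfra (4.80 and 4.34) and Thy1 (0.112 and 0.147) were not. Of 9 neutrophil and myeloid markers, 3 were over the floor in both untreated Melan-A libraries, with a sum of 16.6 to 17.1 CPM, and 3 in both SX-682 libraries, with 44.8 to 45.8 CPM. Nearly all of that sum was Cd68, while the neutrophil gene S100a9 had 0 and 0 counts untreated and 0 and 1 with SX-682. The part of these markers in the differences between lines and in the SX-682 changes of Melan-A was not tested.

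Only 6 of the 10 genes passed edgeR's expression filter: Cxcl1, Cxcl2, Cxcl5, Cxcr1, Cxcr2 and Ackr3. Cxcr1 and Cxcr2 passed only through their counts in Melan-A and so had to differ between lines. Cxcr1 did so through the untreated Melan-A libraries alone, so the filter also favoured a lower level with SX-682 there. Ppbp, Cxcl3, Cxcl12 and Cxcr4 were left untested, with a highest count of 13, 3, 1 and 4 in any library.

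**Figure D1:**
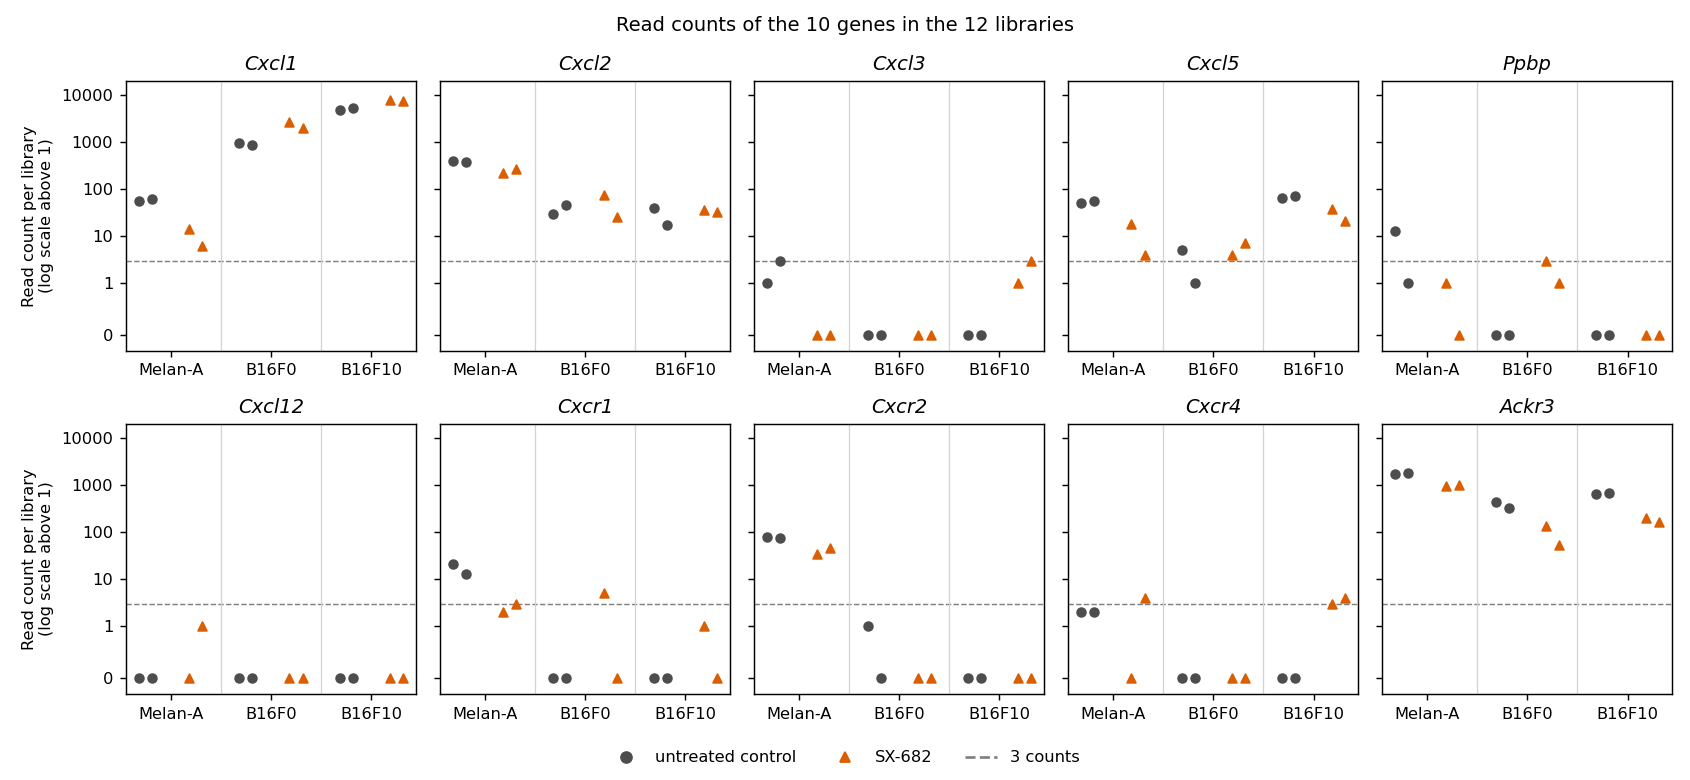
Read counts of the 10 genes in each of the 12 libraries, on an axis that is logarithmic above 1 and linear below. Circles are untreated libraries, triangles are SX-682 libraries and the dashed line marks 3 counts. Cxcl1 climbs from 55 and 61 counts in untreated Melan-A to 4802 and 5206 in untreated B16F10, whereas Cxcr1 and Cxcr2 have no more than 5 counts in any B16 library.

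All 5 ELR ligand genes studied lie on the plus strand of chromosome 5 within 146.6 kb of GRCm38 (mm10). Their order is Cxcl5 (chr5:90759360-90761624), Ppbp (chr5:90768518-90770063), Cxcl3 (chr5:90786103-90789600), Cxcl1 (chr5:90891241-90893115) and Cxcl2 (chr5:90903871-90905938). The 4 receptor genes share chromosome 1: Cxcr2 (chr1:74153989-74161246, plus strand) and Cxcr1 (chr1:74191785-74194631, minus strand) are 30.5 kb apart, and Ackr3 (chr1:90203980-90216751, plus strand) and Cxcr4 (chr1:128588199-128592293, minus strand) lie further along. Cxcl12 is at chr6:117168535-117181367 on the plus strand. Every one of the 10 genes is protein coding and, in GENCODE M21, none overlaps another annotated gene. Cxcl2 and Cxcl3 share 126 stretches of 50 bases, 5.84% of those of Cxcl2 and 3.51% of those of Cxcl3, so part of their reads could be split between them, and values of this pair are less certain on that account. No such stretch was shared by Cxcl1 with Cxcl2 or Cxcl3, or by Cxcr1 with Cxcr2.

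Cxcl1 and Cxcl2 are neighbours 10.8 kb apart and differed in opposite directions between the lines. For this reason 150 upstream bases of these genes and of Cxcl3 are shown, from GRCm38.p6, 5′ to 3′ on the plus strand. Each stretch ends just before the RefSeq start or the gene start given above, whichever comes first. It therefore need not reach the RefSeq start. Capitals mark the letters GGAATTTCC, a kappaB-type motif to which NF-kappaB can bind, and ATAAAAGG, a TATA-like motif.
Cxcl1 (chr5:90891091-90891240): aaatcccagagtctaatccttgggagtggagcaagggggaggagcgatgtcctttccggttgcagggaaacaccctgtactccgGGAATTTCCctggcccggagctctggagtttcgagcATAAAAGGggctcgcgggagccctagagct
Cxcl2 (chr5:90903721-90903870): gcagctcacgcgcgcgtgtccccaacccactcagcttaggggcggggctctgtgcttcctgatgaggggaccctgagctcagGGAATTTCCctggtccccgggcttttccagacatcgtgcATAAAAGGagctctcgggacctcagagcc
Cxcl3 (chr5:90785951-90786100): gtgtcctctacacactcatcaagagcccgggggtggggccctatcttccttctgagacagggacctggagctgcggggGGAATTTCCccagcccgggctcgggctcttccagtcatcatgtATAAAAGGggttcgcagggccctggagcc
All 3 upstream sequences hold both motifs on the plus strand, in the same order. Windows from 250 bases before to 50 after each of 32851 RefSeq gene starts were searched on both strands, for each motif on its own. GGAATTTCC was present in 0.317%, ATAAAAGG in 1.76% and both together in 4 (0.0122%), of which Cxcl1, Cxcl2 and Cxcl3 were 3. Both motifs were searched as exact strings of letters, which occur in all 3 sequences shown. Cxcl1, Cxcl2 and Cxcl3 are also close relatives in the same cluster and so not independent finds. The shares are therefore no test of enrichment. Of the other genes studied, 6 had a window in the table; GGAATTTCC was in none of these, and ATAAAAGG was found in those of Ackr3 and Ppbp. These matches describe letters in the reference and not binding in these cells.

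Cxcl1 was higher in both B16 lines than in Melan-A. Without treatment, its counts were 55 and 61 in Melan-A, 948 and 853 in B16F0, and 4802 and 5206 in B16F10. The libraries of the 3 lines did not overlap, and the order Melan-A, B16F0, B16F10 was the same after scaling, at 0.654 ± 0.024 CPM (SD, n = 2), 12.7 ± 0.022 CPM and 80.4 ± 1.44 CPM. In edgeR's quasi-likelihood test, with Benjamini-Hochberg adjustment over the 18338 genes tested, Cxcl1 was 19.3-fold higher in B16F0 than in Melan-A (log2 difference 4.27, SE 0.10, adjusted p = 1.98e-25). It was 123-fold higher in B16F10 than in Melan-A (log2 difference 6.94, SE 0.079, adjusted p = 2.06e-33) and 6.35-fold higher in B16F10 than in B16F0 (log2 difference 2.67, SE 0.051, adjusted p = 2.99e-27). Per transcript length, Cxcl1 moved from rank 11247 of 19024 protein-coding genes in untreated Melan-A to rank 1249 in untreated B16F10. Untreated Melan-A held 0.792% to 0.835% of the untreated B16F10 level of Cxcl1, and Melan-A with SX-682 0.0994% to 0.244%. For the pigment genes Tyr and Gpr143, chosen after their values were seen, the shares in untreated Melan-A were 1.12% to 1.31% and 0.0140% to 0.0148%. Transfer of reads between libraries was not tested.

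SX-682 moved Cxcl1 in opposite directions in Melan-A and in the B16 lines. In Melan-A the SX-682 libraries had 14 and 6 counts, below both controls. In B16F0 they had 2725 and 1965 counts, and in B16F10 8005 and 7429, above both controls in each line. Expressed as CPM, SX-682 libraries had 0.138 ± 0.082 in Melan-A (SD, n = 2), while B16F0 had 41.1 ± 0.38 and B16F10 had 129.5 ± 3.53. Cxcl1 was lowered 4.74-fold in Melan-A (log2 fold change -2.25, SE 0.29, adjusted p = 1.45e-07) and raised 3.24-fold in B16F0 (1.70, SE 0.054, adjusted p = 3.37e-21) and 1.61-fold in B16F10 (0.69, SE 0.042, adjusted p = 1.34e-14). The Melan-A value rests on few reads: it was -2.99 without SX-682 replicate 1 and -1.72 without SX-682 replicate 2, and both passed the threshold.

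The direct tests of the difference between lines passed the threshold for Cxcl1 in all 3 pairs. Its SX-682 response was higher by 3.94 on the log2 scale in B16F0 than in Melan-A (SE 0.28, adjusted p = 2.41e-12), and higher by 2.93 in B16F10 than in Melan-A (SE 0.29, adjusted p = 1.61e-09). Between the B16 lines the difference, B16F10 minus B16F0, was -1.01 (SE 0.068, adjusted p = 1.39e-12), so the rise was larger in B16F0, the line with the lower untreated level. After SX-682 B16F10 still had the higher Cxcl1 level of the 2 lines.

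**Figure D2:**
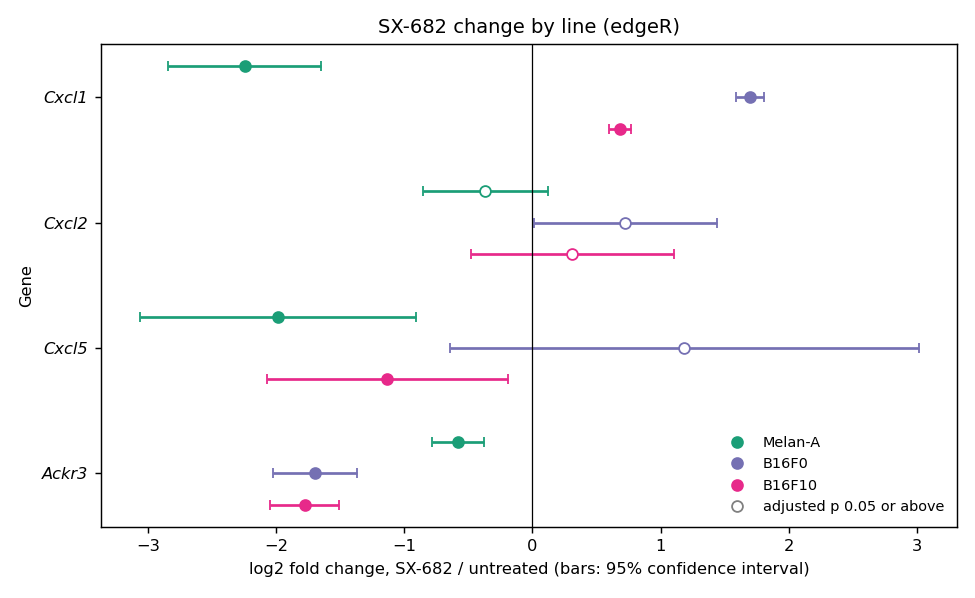
Log2 fold change of SX-682 over untreated for Cxcl1, Cxcl2, Cxcl5 and Ackr3 in each line, with 95% confidence intervals from the edgeR fit of 12 libraries. Filled points passed an adjusted p of 0.05. Cxcl1 lies at -2.25 in Melan-A and at 1.70 and 0.69 in the B16 lines, and Ackr3 lies below 0 in all 3.

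Cxcl2, another CXCR2 ligand that recruits neutrophils, was lower in both untreated B16 lines than in untreated Melan-A. Its counts were 396 and 368 in Melan-A, 29 and 45 in B16F0, and 40 and 17 in B16F10. Both Melan-A libraries were above every B16 library, while the ranges of the 2 B16 lines overlapped. Cxcl2 was 8.23-fold lower in B16F0 than in Melan-A (log2 difference -3.04, SE 0.29, adjusted p = 1.54e-10) and 9.36-fold lower in B16F10 (-3.23, SE 0.31, adjusted p = 1.11e-10). Between B16F10 and B16F0 the difference was -0.19 with a 95% confidence interval from -0.97 to 0.60 (adjusted p = 0.714).

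With SX-682, Cxcl2 had 223 and 268 counts in Melan-A, 76 and 25 in B16F0, and 35 and 33 in B16F10. In Melan-A both treated libraries were under both controls, and in the B16 lines the groups overlapped. None of the 3 changes passed the threshold, at log2 -0.37 (95% confidence interval -0.86 to 0.13, adjusted p = 0.224), 0.72 (0.01 to 1.44, adjusted p = 0.0866) and 0.31 (-0.48 to 1.10, adjusted p = 0.548) in Melan-A, B16F0 and B16F10. The B16F0 value was -0.01 without SX-682 replicate 1, 1.16 (adjusted p = 0.0304) without control replicate 2 and 1.14 (adjusted p = 0.00727) without SX-682 replicate 2, so it was set by which of these libraries was kept. Without filtering on expression its adjusted p was 0.046. In Melan-A the adjusted p was 0.0304 when only that line was fitted.

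Cxcl5, which encodes an ELR ligand often made by epithelial cells, was low in every library. Its counts without treatment were 51 and 56 in Melan-A, 5 and 1 in B16F0, and 63 and 72 in B16F10, so B16F0 was far below both other lines. The fitted difference was -3.79 on the log2 scale for B16F0 against Melan-A (SE 0.66, adjusted p = 6.96e-06) and 4.63 for B16F10 against B16F0 (SE 0.64, adjusted p = 2.21e-07). B16F10 against Melan-A gave 0.84 with a 95% confidence interval from -0.05 to 1.74 (adjusted p = 0.0821), and the adjusted p was 0.0135 when only these groups were fitted.

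After SX-682 Cxcl5 had 18 and 4 counts in Melan-A, 4 and 7 in B16F0, and 38 and 21 in B16F10. In Melan-A and in B16F10 the treated libraries were below both controls, and in B16F0 they overlapped. The fall in Melan-A was -1.98 on the log2 scale (SE 0.53, adjusted p = 0.00225), with -3.45 when SX-682 replicate 1 was left out and -1.24 (adjusted p = 0.0906) when SX-682 replicate 2 was. The B16F10 value was -1.13 (SE 0.46, adjusted p = 0.0400), and it lost the threshold with DESeq2 (adjusted p = 0.0521), with counts thinned to the smallest library (0.0578), with a replicate block crossed in Melan-A (0.051), and without control replicate 1, control replicate 2 or SX-682 replicate 2 (0.0889, 0.134 and 0.266). In B16F0 the log2 fold change was 1.19 with a 95% confidence interval from -0.64 to 3.01 (adjusted p = 0.291).

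Ppbp, the precursor of the platelet ELR chemokine, and Cxcl3, a close relative of Cxcl1 and Cxcl2, were barely detected. Ppbp had 13 and 1 counts in untreated Melan-A, 1 and 0 with SX-682, 3 and 1 in B16F0 with SX-682, and 0 in the 6 other libraries. A single Melan-A control library therefore carried most of its counts. Cxcl3 had 1 and 3 counts in untreated Melan-A and 1 and 3 in B16F10 with SX-682, none over the floor, and 0 elsewhere. No fold change is given for Cxcl3.

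Taken as a set per transcript length, the ELR ligands changed make-up between lines. In TPM, the count scaled to transcript length and to the library, the 5 ligands summed to 10.9 ± 0.90 in untreated Melan-A, 24.0 ± 0.36 in untreated B16F0 and 140 ± 2.22 in untreated B16F10 (SD, n = 2). Cxcl2 made up 73.5% ± 0.054 of that sum in Melan-A and Cxcl1 12.3% ± 1.53, whereas Cxcl1 made up 96.1% ± 1.04 in B16F0 and 98.2% ± 0.26 in B16F10. With SX-682 the sum was 6.63 ± 0.048 TPM for Melan-A, 75.0 ± 2.13 for B16F0 and 216 ± 8.62 for B16F10. The share of Cxcl1 was then 4.15% ± 2.52 in Melan-A and at least 97.8% in both B16 lines. The lengths used were the counted lengths, which for Cxcl1 (1875 bases), Cxcl2 (2068) and Cxcl3 (3498) are the whole gene because a retained-intron transcript is annotated. With the longest spliced coding transcript in their place (953 bases for Cxcl1 and 1859 for Cxcl2), the share of Cxcl1 in untreated Melan-A was 19.7%.

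**Figure D3:**
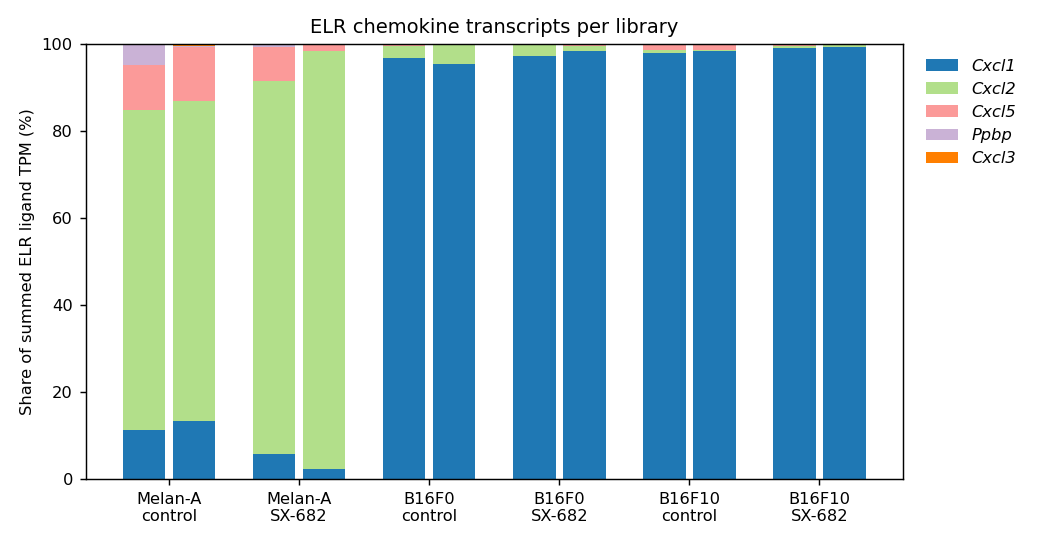
Share of each ELR ligand in the summed TPM of the 5 ELR ligands, with 1 bar for each of the 12 libraries and lengths as counted by the authors. Cxcl2 takes the larger part of every Melan-A bar, 73.5% on average without treatment, and Cxcl1 takes 96.1% or more on average in each B16 group.

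Among the receptors, Cxcr2 RNA was found in Melan-A and was at or near 0 in the B16 lines. CXCR2 is the main receptor of the ELR ligands and a target of SX-682. Counts of Cxcr2 were 79 and 76 in untreated Melan-A, 1 and 0 in untreated B16F0, and 0 and 0 in untreated B16F10. The level in untreated Melan-A was 0.876 ± 0.055 CPM (SD, n = 2). Untreated Melan-A exceeded untreated B16F0 by a ratio of 124, with a 95% exact counting interval from 22.0 to 4943, and untreated B16F10 by at least 18.1-fold, taking the floor of 3 counts per library as the level in B16F10. In bulk RNA, fewer cells with a transcript and less of it per cell cannot be told apart. At these depths, a B16 library with 0 counts allows up to 3 counts, and levels of CXCR2 protein were not measured by these data.

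SX-682 libraries had 34 and 47 Cxcr2 counts in Melan-A, and 0 in all 4 B16 libraries. Both Melan-A values were under both controls. The log2 fold change in Melan-A was -0.66 with a 95% confidence interval from -1.59 to 0.26 (adjusted p = 0.240), so it did not pass the threshold. No fold change is given in the B16 lines, where both groups were at or under the floor.

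Cxcr1, which encodes the sister receptor, followed the same distribution at a lower level. Untreated Melan-A had 21 and 13 counts and all 4 untreated B16 libraries had 0, which puts Melan-A at least 4.56-fold above B16F0 and at least 4-fold above B16F10. After SX-682 there were 2 and 3 counts in Melan-A, 5 and 0 in B16F0, and 1 and 0 in B16F10. Only 1 of these 6 libraries was over the floor, a B16F0 library. In Melan-A the ratio of untreated to SX-682 counts was 5.62, with a 95% exact counting interval from 2.19 to 18.4. Cxcr1 passed the expression filter only through its untreated Melan-A libraries, which favoured a fall with SX-682. Neither this ratio nor the edgeR test is therefore independent support for a fall. The edgeR value was -2.44 on the log2 scale (SE 0.97, adjusted p = 0.0391), but the call was lost when any 1 of the 12 libraries was left out (adjusted p from 0.065 to 0.272) and without the expression filter (0.143).

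Cxcr4, the signalling receptor of CXCL12, had 2 and 2 counts in untreated Melan-A, 0 and 4 in Melan-A with SX-682, and 3 and 4 in B16F10 with SX-682. It was 0 in untreated B16F10 and in all 4 B16F0 libraries. The mean level in B16F10 with SX-682 was 1.22-fold the floor level of untreated B16F10. Replicate 1 with SX-682 was itself at the floor, and this ratio leaves out the counting error of 3 and 4 reads. Without the expression filter, the edgeR adjusted p for this change was 0.267. Cxcl12 was found as 1 count in 1 library, Melan-A with SX-682, and 0 in the other 11.

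Ackr3, the scavenger receptor for CXCL12, had the highest TPM of the 4 receptors in every group, from 1.59 in B16F0 with SX-682 to 23.1 in untreated Melan-A. Its untreated counts were 1750 and 1845 in Melan-A, 433 and 331 in B16F0, and 637 and 671 in B16F10, with no overlap between lines. Both B16 lines, at 5.35 ± 0.61 CPM (SD, n = 2) for B16F0 and 10.5 ± 0.025 CPM for B16F10, lay below Melan-A at 20.3 ± 0.028 CPM. Ackr3 was 3.78-fold lower in B16F0 than in Melan-A (log2 difference -1.92, SE 0.11, adjusted p = 9.99e-16), 1.93-fold lower in B16F10 than in Melan-A (-0.95, SE 0.10, adjusted p = 2.25e-09) and 1.96-fold higher in B16F10 than in B16F0 (0.97, SE 0.12, adjusted p = 2.33e-08).

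**Figure D4:**
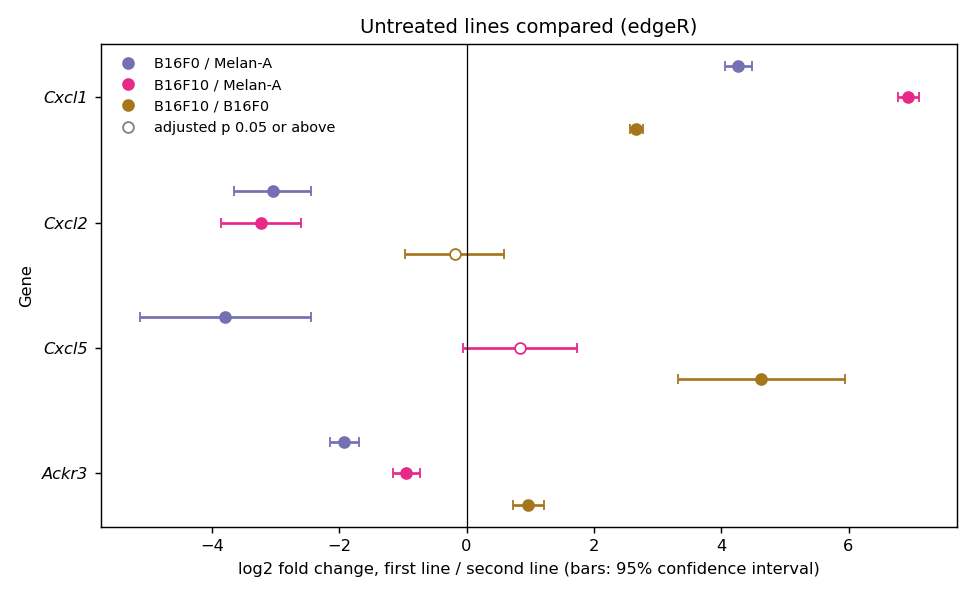
Log2 difference between untreated lines for Cxcl1, Cxcl2, Cxcl5 and Ackr3, with 95% confidence intervals from the edgeR fit of 12 libraries. Filled points passed an adjusted p of 0.05. Cxcl1 lies at 4.27 and 6.94 for the B16 lines over Melan-A, whereas Cxcl2 lies at -3.04 and -3.23 and Ackr3 at -1.92 and -0.95.

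SX-682 lowered Ackr3 in every line. Treated libraries had 960 and 1026 counts in Melan-A, 137 and 53 in B16F0, and 204 and 162 in B16F10, each under both controls of its line. The fall was 1.495-fold in Melan-A (log2 fold change -0.58, SE 0.10, adjusted p = 1.41e-05), 3.24-fold in B16F0 (-1.70, SE 0.16, adjusted p = 2.44e-10) and 3.42-fold in B16F10 (-1.78, SE 0.13, adjusted p = 1.22e-12). The treated B16F0 libraries differed from each other, and the value was -2.28 without SX-682 replicate 1 and -1.37 without SX-682 replicate 2. Relative to Melan-A the fall was larger by 1.12 on the log2 scale in B16F0 (difference -1.12, SE 0.19, adjusted p = 2.43e-05) and by 1.19 in B16F10 (difference -1.19, SE 0.17, adjusted p = 1.08e-06). The B16 lines differed from each other by -0.08, with a 95% confidence interval from -0.52 to 0.37 (adjusted p = 0.886).

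Calls are counted here over Cxcl1, Cxcl2, Cxcl5 and Ackr3, leaving out Cxcr1 and Cxcr2, which passed the filter only through Melan-A. All 4 differed between untreated B16F0 and Melan-A (1 higher and 3 lower in B16F0), where 75.9% of all genes tested did (35.3% higher and 40.6% lower). For untreated B16F10 against Melan-A 3 of 4 differed (1 higher and 2 lower), against 74.2% of all genes (33.4% higher and 40.8% lower). For B16F10 against B16F0 3 of 4 were higher in B16F10, against 62.0% of all genes that differed (30.8% higher and 31.2% lower). These comparisons share their untreated libraries, and most genes tested differed in each of them, so a call among these genes is not particular to them.

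SX-682 changed 3 of these 4 genes in Melan-A, all of them lower, against 48.2% of all genes tested (23.4% higher and 24.7% lower). In B16F0 it changed 2, with Cxcl1 higher and Ackr3 lower, against 50.1% (25.1% higher and 25.0% lower). In B16F10 it changed 3, with Cxcl1 higher and Cxcl5 and Ackr3 lower, against 50.8% (25.5% higher and 25.3% lower). The response differed between B16F0 and Melan-A for 4 of the 4 genes (34.4% of all genes), between B16F10 and Melan-A for 2 (33.8%) and between the B16 lines for 1 (30.3%). The 4 include Cxcl2 and Cxcl5, which lost the call in other settings.

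Genes around this axis were read from lists of other CXC ligands and receptors, signalling components, NF-kappaB inputs, mRNA decay factors and presentation factors. Where a rise or fall is called the largest of a list, it is so among genes past the threshold with a mean log2 CPM of at least 1. Beside the count of each list stands the share of all genes tested that was called in that line, and the median log2 fold change of all genes tested was 0 in each line. Of the other CXC ligands, 4 were tested. The interferon-inducible CXCR3 ligand Cxcl10 fell in Melan-A by 0.53 on the log2 scale (SE 0.042, adjusted p = 6.65e-12), rose in B16F0 by 0.28 (SE 0.043, adjusted p = 2.23e-06) and fell in B16F10 by 0.27 (SE 0.041, adjusted p = 1.36e-06). In this list 1 gene rose and 2 fell in Melan-A (48.2% of all genes called), 2 rose in B16F0 (50.1%), and 1 rose and 2 fell in B16F10 (50.8%). Besides Cxcl10, the calls were Cxcl11, another CXCR3 ligand, which rose in each line, Cxcl15, which fell in Melan-A, and Cxcl16, which fell in B16F10. Of 4 other CXC and atypical receptors tested, 1 fell in each B16 line (25.0% and 25.3% of all genes lower). This was Cxcr3, named after its values were seen, with 88 and 77 counts in untreated B16F0 against 5 and 0 with SX-682 (log2 fold change -4.69, SE 0.59, adjusted p = 7.02e-08), and 32 and 40 against 5 and 8 in B16F10 (-2.38, SE 0.53, adjusted p = 0.000311). For this list edgeR called 0 in Melan-A, where 0 had an unadjusted p under 0.05 and DESeq2 called 0.

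Macrophage migration inhibitory factor is a non-ELR ligand that can also bind CXCR2, and its receptor component is CD74. Mif rose in Melan-A by 0.38 on the log2 scale (SE 0.029, adjusted p = 2.96e-12). Cd74 rose by 1.33 in B16F0 (SE 0.17, adjusted p = 1.34e-07) and by 3.43 in B16F10 (SE 0.30, adjusted p = 5.74e-11). Of the 3 genes of the list, 1 rose in Melan-A (23.4% of all genes higher), 1 rose in B16F0 (25.1%), and 3 rose in B16F10 (25.5%), where Mif (0.11, SE 0.029, adjusted p = 0.00294) and its paralog Ddt (0.33, SE 0.11, adjusted p = 0.0107) rose beside Cd74.

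Of 22 tested genes of receptor signalling and desensitization, 3 rose and 12 fell in Melan-A (48.2% of all genes called), 8 rose and 8 fell in B16F0 (50.1%), and 5 rose and 8 fell in B16F10 (50.8%). The median log2 fold change of the list was -0.13, 0.08 and -0.01 in these lines, against 0 over all genes. Arrb2, a beta-arrestin that uncouples chemokine receptors, rose in Melan-A (0.42, SE 0.056, adjusted p = 2.15e-07), in B16F0 (0.20, SE 0.054, adjusted p = 0.00246) and in B16F10 (0.59, SE 0.058, adjusted p = 4.22e-10). Prex1, a Rac exchange factor activated by G-protein beta-gamma subunits, fell in Melan-A (-0.47, SE 0.035, adjusted p = 1.35e-12) and in B16F10 (-0.49, SE 0.041, adjusted p = 2.49e-11). In B16F0, where Prex1 had 4 and 10 counts without treatment and 16 and 12 with SX-682, it was called higher (1.30, SE 0.44, adjusted p = 0.0153). Pik3cb, a catalytic subunit of phosphoinositide 3-kinase, fell in Melan-A by 0.32 (SE 0.044, adjusted p = 3.57e-07), in B16F0 by 0.30 (SE 0.048, adjusted p = 3.81e-06) and in B16F10 by 0.35 (SE 0.050, adjusted p = 4.84e-07).

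The NF-kappaB and interleukin-1 list had 20 tested genes, of which 11 rose and 4 fell in Melan-A (48.2% of all genes called), 11 rose and 5 fell in B16F0 (50.1%), and 10 rose and 8 fell in B16F10 (50.8%). Its median log2 fold change was 0.17, 0.18 and 0.11, against 0 over all genes. Tnfaip3, a feedback inhibitor of NF-kappaB, rose in Melan-A (0.91, SE 0.099, adjusted p = 4.65e-09), in B16F0 (1.30, SE 0.10, adjusted p = 6.22e-12) and in B16F10 (0.89, SE 0.087, adjusted p = 4.69e-10). Relb, a subunit of the non-canonical pathway, also rose in all 3 lines, by 0.88, 1.08 and 0.99 (adjusted p = 1.28e-15, 7.31e-17 and 3.92e-17). Nfkb1 was the largest fall in Melan-A (-0.43, SE 0.033, adjusted p = 3.22e-12), rose in B16F0 (0.10, SE 0.034, adjusted p = 0.0131) and fell in B16F10 (-0.21, SE 0.033, adjusted p = 2.14e-06). Cebpd, an inflammatory transcription factor, was the largest fall in B16F0 (-0.30, SE 0.082, adjusted p = 0.00295) and B16F10 (-0.66, SE 0.048, adjusted p = 7.03e-13) and rose in Melan-A (0.56, SE 0.042, adjusted p = 2.33e-12).

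**Figure D5:**
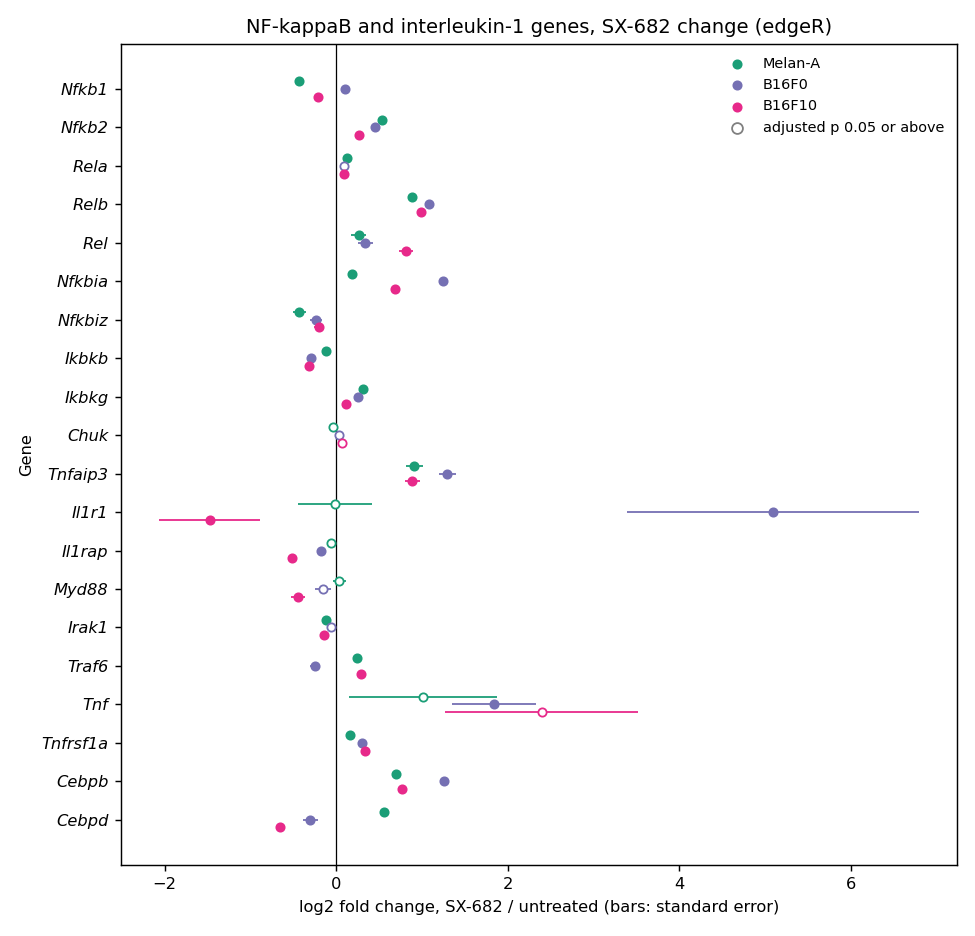
Log2 fold change of SX-682 over untreated for the 20 tested genes of the NF-kappaB and interleukin-1 list in each line, with standard errors. Filled points passed an adjusted p of 0.05. Relb and Tnfaip3 lie to the right of 0 in all 3 lines, whereas Nfkb1 lies at -0.43, 0.10 and -0.21 in Melan-A, B16F0 and B16F10. Il1r1 fell further than Cebpd in B16F10 but was under the expression minimum, and the wide bars of Il1r1 and Tnf go with low counts, at most 67 for Il1r1 and 98 for Tnf in any library.

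Factors that set the half-life of chemokine mRNA formed a list of 12, all tested. Of these, 2 rose and 9 fell in Melan-A (48.2% of all genes called), 5 rose and 3 fell in B16F0 (50.1%), and 4 rose and 5 fell in B16F10 (50.8%). The median log2 fold change was -0.35, 0.09 and 0.05, against 0 over all genes. Zfp36, which encodes tristetraprolin and promotes decay of AU-rich mRNAs, was the largest rise of the list in each line, at 0.76 (SE 0.069, adjusted p = 1.18e-10), 1.46 (SE 0.085, adjusted p = 6.93e-15) and 1.06 (SE 0.088, adjusted p = 1.55e-11). Its relative Zfp36l1 was the largest fall in Melan-A (-0.63, SE 0.038, adjusted p = 1.44e-14) and rose in B16F0 (0.29, SE 0.039, adjusted p = 2.48e-07). The AU-rich binding factor Hnrnpd was the largest fall in B16F0 (-0.43, SE 0.030, adjusted p = 3.06e-13) and fell in Melan-A and B16F10 too (-0.44 and -0.38, adjusted p = 4.35e-14 and 6.08e-13). The endoribonuclease gene Zc3h12a was the largest fall in B16F10 (-0.43, SE 0.075, adjusted p = 1.38e-05).

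Of 7 tested genes for chemokine processing and presentation, 5 fell in Melan-A (24.7% of all genes lower), 3 rose and 2 fell in B16F0 (50.1% called), and 5 fell in B16F10 (25.3% lower). The matrix metalloproteinase gene Mmp2 fell in Melan-A (-0.51, SE 0.087, adjusted p = 1.1e-05) and in B16F10 (-0.47, SE 0.069, adjusted p = 1.01e-06). Mmp14 rose in B16F0 (0.19, SE 0.024, adjusted p = 1.51e-07) and fell in Melan-A (-0.10, SE 0.026, adjusted p = 0.00119) and in B16F10 (-0.34, SE 0.024, adjusted p = 5.42e-13). Sdc3, a syndecan whose heparan sulfate chains can hold chemokines at the cell surface, fell in B16F0 (-0.46, SE 0.035, adjusted p = 2.51e-12) and B16F10 (-0.81, SE 0.045, adjusted p = 1.82e-15).

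For each tested gene of the axis, the 3 genes with the most similar log2 CPM over the 12 libraries were sought among 11684 others, by Pearson's r, as a description of libraries that fall into 3 lines. Cxcr2 was closest to Gas1 (r = 0.998), Fibin (0.997) and Pcdh10 (0.997). Gas1 had 11.6 ± 0.53 CPM in untreated Melan-A, 6.73 ± 0.25 with SX-682 and at most 0.00667 in the means of the B16 groups. Cxcr2 and Cxcr1 passed the filter only through Melan-A. Genes higher in Melan-A than in the B16 lines can therefore reach a high r with them by that pattern alone. Cxcl1 was closest to Mill2 (0.990), Bcl2l13 (0.990) and Sem1 (0.990), and Ackr3 to Slc45a4 (0.981), Zfp933 (0.977) and Arl5a (0.976). Cxcl2 was closest to Ggct (0.979), Ddc (0.971) and Synm (0.970), Cxcl5 to Tmem29 (0.947), Mark2 (0.937) and Ctnnd1 (0.928), and Cxcr1 to Lacc1 (0.924), 2900097C17Rik (0.921) and Lin7c (0.912). Mill2 had 0.339 ± 0.012 CPM in untreated Melan-A, 1.18 ± 0.41 in untreated B16F0 and 4.33 ± 0.28 in untreated B16F10, the order seen for Cxcl1. Mill2 was picked for its correlation with Cxcl1 over these libraries, so the same order is no separate finding.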

How the data were processed

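RNA sequencing was performed on Melan-A, B16F0 and B16F10 cultures, untreated or with SX-682. The authors deposited raw read counts per gene for 12 libraries, without normalization, with gene lengths and GRCm38 coordinates. The submitters' processing notes name cutadapt, STAR, DESeq2 and mm10. The counting program and its use of strand are not given in the sources used here. All columns were matched to samples by name. Libraries held 48876982 to 85322092 counts, so 3 counts are 0.0330 to 0.0623 CPM.

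Counts were fitted in R 4.3.3 with edgeR 4.0.16 (quasi-likelihood F-test, all 12 libraries, TMM scaling, expression filter keeping 18338 genes, prior count 0.125, Benjamini-Hochberg threshold 0.05). TPM used the deposited lengths. Each standard error was the absolute log2 fold change divided by the square root of F. On simulated counts for the SX-682 change in Melan-A, 73.1% of 93 genes changed 2-fold and 80.8% of 99 changed 4-fold were recovered among 17864 genes, with 11 false calls.

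Alternatives were DESeq2 1.42.0, size factors by RLE, testing without the filter or with a minimum of 10 counts per library, separate fits, a replicate block, a prior count of 2, thinning and leaving out each library. A crossed replicate block and spliced lengths were added after seeing the data. The genes and lists were chosen with earlier results of these data known. Named genes were all members, the largest rise and fall of each list in each line among genes past the threshold with a mean log2 CPM of at least 1, and the 3 genes most like each tested member. Adgre1, Ackr1 and Cxcl14 were not analysed here.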

Additional observations from a re-analysis of the deposited data

Results flagged for a closer look

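A test of the difference in SX-682 response between lines was passed by the following genes, each fitted with edgeR and adjusted over 18338 genes. Between B16F0 and Melan-A, the difference on the log2 scale was 3.94 for Cxcl1 (SE 0.28, adjusted p = 2.41e-12), which fell in Melan-A and rose in B16F0 in 2 of 2 libraries each, and -1.12 for Ackr3 (SE 0.19, adjusted p = 2.43e-05), which fell in both. It was 3.17 for Cxcl5 (SE 1.05, adjusted p = 0.0179) and 1.09 for Cxcl2 (SE 0.42, adjusted p = 0.0456). The Cxcl5 call was lost without Melan-A SX-682 replicate 2, B16F0 control replicate 2 or B16F0 SX-682 replicate 2 (adjusted p = 0.0663, 0.0846 and 0.161). The Cxcl2 call was lost without Melan-A control replicate 1, Melan-A SX-682 replicate 1, B16F0 control replicate 1 or B16F0 SX-682 replicate 1 (adjusted p = 0.104, 0.102, 0.269 and 0.689). Cxcr1 passed the filter only through untreated Melan-A, which favoured a positive difference here, so its call is no independent support. For Cxcr1 the fitted difference was 7.04 (SE 2.32, adjusted p = 0.0183). Its size depends on the prior count and is no bound. In B16F0, 5 counts in 1 treated library stand against 0 in the other 3 libraries of that line. Without that library its adjusted p was 1.

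Between B16F10 and Melan-A, the difference was 2.93 for Cxcl1 (SE 0.29, adjusted p = 1.61e-09) and -1.19 for Ackr3 (SE 0.17, adjusted p = 1.08e-06). Between B16F10 and B16F0 it was -1.01 for Cxcl1 (SE 0.068, adjusted p = 1.39e-12), which rose in 2 of 2 treated libraries of both lines.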

How the results depend on the processing

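Settings that kept all 12 libraries gave 339 values for the 43 fitted differences of these genes, leaving out pairs of groups at the floor. Among the 43 are differences of Cxcr1 and Cxcr2 between untreated lines. Those genes had to differ between lines, so their unchanged calls there add no support. The Cxcr1 fall with SX-682 in Melan-A and its B16F0 minus Melan-A difference are also among the 43, and the filter favoured both. Of the 339 values, 326 kept their direction and side of the threshold, 9 lost the call, 4 gained it and 0 changed direction. The prior count of 2 alters fold changes but not p-values, so its 43 values could neither lose nor gain a call. With DESeq2, 3 of the tested genes were called for B16F0 minus Melan-A (5 in edgeR) and 2 for B16F10 minus B16F0 (1 in edgeR). Thinning to the smallest library left 2 of 5 tested genes for B16F0 minus Melan-A. With at least 10 counts in every library, Ackr3 and Cxcl2 alone were tested, and 1, 1 and 1 were called for SX-682 in Melan-A, B16F0 and B16F10, 2, 2 and 1 for the untreated comparisons, and 2, 1 and 0 for the differences between responses, where 0 had an unadjusted p under 0.05 in edgeR. Leaving out 1 library gave 2 to 4 calls for SX-682 in Melan-A, with 2 without SX-682 replicate 2, 2 to 4 in B16F0, with 4 without SX-682 replicate 2, and 3 to 6 for B16F0 minus Melan-A. That count was 3 without Melan-A control replicate 1, Melan-A SX-682 replicate 1, B16F0 control replicate 1 or 2, or B16F0 SX-682 replicate 1. In the runs with 1 library left out, the expression filter kept 7 of the 10 genes, or 6 without Melan-A control replicate 1. The main fit kept 6, so these counts are not all over the same genes. The direction turned in values that had not passed the threshold. Over the libraries left out, Cxcl2 ranged from -0.010 to 1.16 in B16F0, from -0.22 to 1.10 in B16F10, from -0.97 to 0.35 for untreated B16F10 against B16F0 and from -0.94 to 0.37 for B16F10 minus B16F0, and Ackr3 from -0.41 to 0.50 for B16F10 minus B16F0. Same-numbered libraries of a line did not deviate together (correlations -0.12, -0.03 and -0.05 in Melan-A, B16F0 and B16F10). With the replicate block, 4, 2 and 3 genes were called for SX-682 in these lines, and the Cxcl2 difference between B16F0 and Melan-A was 1.06 (adjusted p = 0.0533). A crossed replicate block in Melan-A gave 4, 2 and 2 calls. Depth limits Cxcr1, Cxcr2 in the B16 lines, Cxcr4, Cxcl3, Ppbp and Cxcl12, where few or 0 reads were counted.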

Other observations

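Genes next to the ELR ligands on chromosome 5 were looked at after the ligands' values had been seen. Cxcl15, a CXC ligand whose gene lies between Cxcl3 and Cxcl1 (chr5:90794534-90803067), had 66 and 46 counts in untreated Melan-A and 20 and 15 with SX-682, and at most 3 in any B16 library. Its edgeR value for SX-682 in Melan-A was -1.40 (SE 0.54, adjusted p = 0.0323). Cxcl15 was not among the ligands whose TPM was summed above. Mthfd2l, a mitochondrial folate enzyme gene that begins past Cxcl2 (chr5:90931117-91021368), had 1664 and 1808 counts in untreated Melan-A, 42 and 41 in untreated B16F0, and 578 and 634 in untreated B16F10. It was lower by 5.06 on the log2 scale in B16F0 than in Melan-A (difference -5.06, SE 0.15, adjusted p = 3.1e-23) and higher by 4.06 in B16F10 than in B16F0 (SE 0.16, adjusted p = 1.78e-19). B16F0 thus had the lowest level of Mthfd2l among the untreated lines, as it had of Cxcl5 at the other end of the cluster. Cxcl1 and Cxcl2, which lie between them, did not share this order. Untreated Cxcl1 was lowest in Melan-A, and the Cxcl2 ranges of the B16 lines overlapped.

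The CXCR3 ligand gene Cxcl11 had 23 and 29 counts in untreated Melan-A against 67 and 78 with SX-682, 11 and 0 against 80 and 41 in B16F0, and 0 and 0 against 25 and 11 in B16F10. Treated libraries were above both controls in each line. The edgeR value was 1.75 in Melan-A (SE 0.48, adjusted p = 0.00338) and 3.73 in B16F0 (SE 0.61, adjusted p = 6.61e-06), and in B16F10, where the controls had 0 counts, the adjusted p was 7.75e-05.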
